A study of Arabidopsis thaliana with 8 samples.

Results

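The expression of 10 genes of root hair fate and growth was read from RNA-seq of whole Arabidopsis thaliana seedlings. The genes were taken by locus number as known root hair regulators and wall genes. The rule uses no measured value, but the genes were chosen with earlier results of these data known. All 10 were present among the 22951 genes listed, and all 10 passed the filter on low values, set at 1 FPKM on average across the 8 libraries, as did 18798 genes in all. FPKM counts sequenced fragments relative to transcript length and to library depth.

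Seedlings were 5 days old and light-grown, and bin2-1 is in the Col-0 background per the labels. There were 3 libraries of wild-type Col-0, 2 of MIR394A_OE, a line that overexpresses the microRNA gene MIR394A, and 3 of bin2-1, which carries a dominant allele of BIN2, a kinase. Seeds had 4 days of cold at 4 °C, and growth followed at 22 °C under a cycle of 16 h light and 8 h dark. Neither the promoter behind MIR394A nor the number of lines is stated in the labels. Separate sowings are not stated for the replicates, and a p-value reflects only how far these libraries scatter, which may be technical.

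In the Arabidopsis root, epidermal cells that lie over the junction of cortical cells form hairs, and the others do not. In non-hair cells the MYB factor WER acts with the bHLH proteins GL3 and EGL3 and with TTG1 to switch on GL2, which blocks hair formation, and CPC, a small MYB that moves to the neighbouring cell and competes with WER there. In hair cells, free of GL2, RHD6 starts the hair and RSL4 drives its growth, and wall genes such as expansins and extensins follow. BIN2 is a negative regulator of brassinosteroid signalling and is known to phosphorylate EGL3 and TTG1 in root epidermis. By its title the series is about miR394 and brassinosteroid signalling in the hypocotyl.

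The root hair element, RHE, is a motif known from hair-cell promoters and bound by RSL4. It was defined on promoters of hair genes such as EXPA7 and EXPA18, so a match in these genes was given in advance and is shown as a description. It was searched on both strands in the 250 bases before the annotated transcript start, in RefSeq's TAIR10.1 genome. A match was present in EXPA7, EXPA18, PRP3 and LRX1, 4 of the 10 genes and 4 of the 5 wall and surface genes. Over the same window it was present in 202 of 27443 protein-coding genes, or 0.736%. The 4 windows lie at chr1:4276255-4276504 for EXPA7, chr1:23331313-23331562 for EXPA18, chr3:23182472-23182721 for PRP3 and chr1:4069742-4069991 for LRX1, all on the plus strand. They are shown 5′ to 3′ with the RHE match in capitals, because the match is the sequence feature that these wall genes share. The deposited values name no genome build, so the start sites are RefSeq's and may differ from those used for counting.

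EXPA7: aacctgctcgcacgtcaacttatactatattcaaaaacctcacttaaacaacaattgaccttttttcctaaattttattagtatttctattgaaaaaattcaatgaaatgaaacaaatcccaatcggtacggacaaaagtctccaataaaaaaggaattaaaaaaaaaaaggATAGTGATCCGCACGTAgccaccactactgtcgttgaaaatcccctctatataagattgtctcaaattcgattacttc
EXPA18: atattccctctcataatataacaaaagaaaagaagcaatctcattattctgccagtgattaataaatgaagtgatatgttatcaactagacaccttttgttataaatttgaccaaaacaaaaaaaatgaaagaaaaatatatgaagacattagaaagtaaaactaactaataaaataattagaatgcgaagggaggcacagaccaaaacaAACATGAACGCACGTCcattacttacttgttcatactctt
PRP3: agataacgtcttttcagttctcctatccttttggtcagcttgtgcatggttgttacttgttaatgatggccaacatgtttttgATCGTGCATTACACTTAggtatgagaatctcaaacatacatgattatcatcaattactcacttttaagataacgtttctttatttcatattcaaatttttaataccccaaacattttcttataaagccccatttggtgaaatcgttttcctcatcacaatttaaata
LRX1: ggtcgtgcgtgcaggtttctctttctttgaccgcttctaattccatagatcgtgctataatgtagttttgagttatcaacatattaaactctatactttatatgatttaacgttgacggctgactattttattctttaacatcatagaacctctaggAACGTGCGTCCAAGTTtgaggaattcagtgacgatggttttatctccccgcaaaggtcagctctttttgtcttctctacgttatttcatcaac

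In EXPA7 the match, ATAGTGATCCGCACGTA, ends 62 bases before the start, and in EXPA18 the match, AACATGAACGCACGTC, ends 25 bases before it. Both read along the gene's own strand. In PRP3 and LRX1 the match lies on the other strand, ending 151 and 78 bases before the start, so the capitals above are its reverse complement. A short BZR1 site (CGTGTG or CGTGCG, either strand), the sequence bound by the brassinosteroid factor BZR1, was present in EXPA7, EXPA18, COBL9 and LRX1, against 6.77% of all windows. In EXPA7, EXPA18 and LRX1 a BZR1 site lies inside the RHE match, since the motifs share letters. The L1 box (TAAATGTA or TAAATGCA), bound by factors of the GL2 class, was in none of the 10 windows and in 4.38% of all. No RHE match was found in the windows of WER, GL2, CPC, RHD6, RSL4 or COBL9. Among other hair genes it was present in PRP1, 1 of 12 further wall genes, and in MRH6, 1 of 18 tip growth genes.

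**Figure D1:**
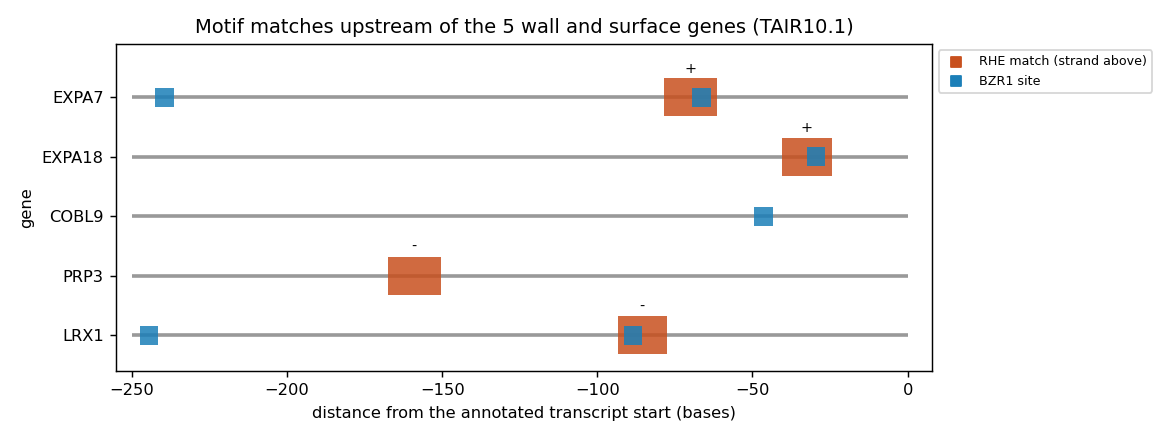
Motif matches in the 250 bases before the annotated transcript start of the 5 wall and surface genes, with distance in bases on the x axis; tall bars are RHE matches with their strand above and short bars are BZR1 sites. The EXPA7 and EXPA18 matches end 62 and 25 bases before the start, and COBL9 has no RHE match.

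The libraries were close in depth, at an estimated 9.55 to 11.2 M reads, judged by the spacing of small FPKM values. At that depth 3 reads on 1 kb of transcript are 0.267 to 0.314 FPKM, which covers counting error only. The first principal component over all tested genes held 43.1% of the variance. Col-0 replicate 1 (-35.4) and MIR394A_OE replicate 1 (-54.2) stood apart at its low end, and the 3 bin2-1 libraries lay at 30.9 to 38.6. Several of the larger differences that move without these libraries are given with and without them. Some others are given as a range with 1 library left out at a time. No gene of the root marker lists was at 0 in all libraries. In whole seedlings, fewer cells of a type and less RNA per cell cannot be told apart.

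Mean levels in Col-0 spanned from RSL4 to PRP3. By mean FPKM (SD, n = 3) the order was PRP3 at 64.3 ± 22.9, GL2 at 13.2 ± 1.67, EXPA18 at 11.6 ± 1.56, LRX1 at 7.18 ± 2.81, EXPA7 at 6.93 ± 2.86, COBL9 at 6.43 ± 0.807, CPC at 5.25 ± 1.97, WER at 2.85 ± 1.31, RHD6 at 1.91 ± 1.07 and RSL4 at 1.77 ± 0.435. PRP3 lay above all others in every Col-0 library. GL2 and EXPA18 overlapped, as did LRX1, EXPA7, COBL9 and CPC with each other, and WER, RHD6 and RSL4 with each other. The transcription factors of the hair cell were thus near the low end, at an estimated 16 to 49 reads per library for RHD6 and 19 to 80 for RSL4.

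**Figure D2:**
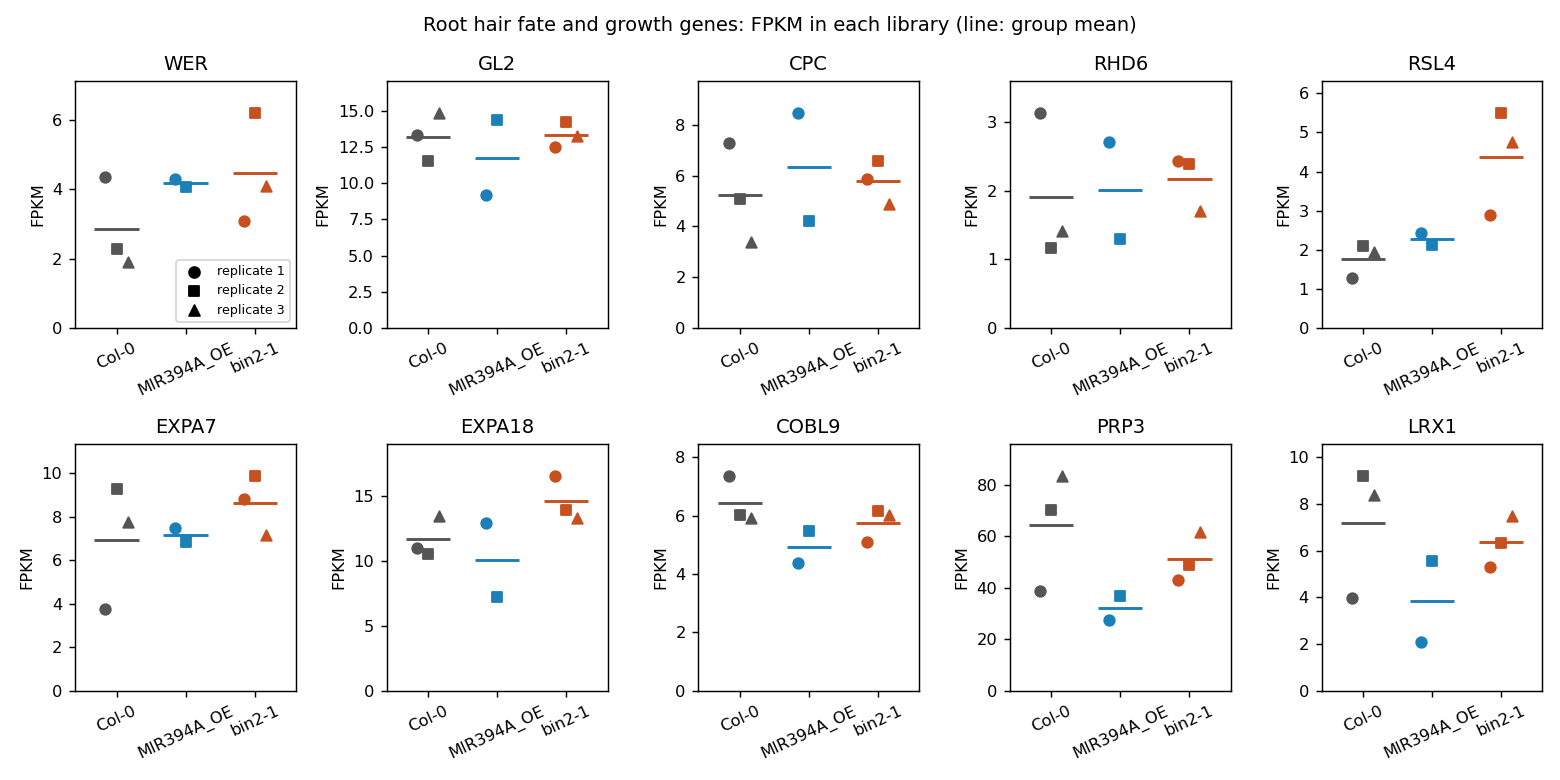
FPKM of each gene (y axis, from 0) in the 8 libraries by group, with the replicate number as the symbol and the group mean as a line. RSL4 lies at 2.88 to 5.49 FPKM across bin2-1 libraries, against 1.28 to 2.10 for Col-0, while the other genes overlap between bin2-1 and Col-0.

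Among the fate genes, WER is the MYB factor of non-hair cells. WER (AT5G14750) was at 4.35, 2.29 and 1.92 FPKM across the Col-0 libraries, 4.29 and 4.08 across those of MIR394A_OE and 3.10, 6.20 and 4.09 across those of bin2-1. Col-0 replicate 1 reached the level of both lines, while the other Col-0 libraries lay below all 5 of theirs. GL2 (AT1G79840), the homeodomain protein that blocks hair formation, was at 13.33, 11.51 and 14.84 FPKM across the Col-0 libraries, 9.17 and 14.38 across those of MIR394A_OE and 12.52, 14.27 and 13.25 across those of bin2-1. It was the most even of the fate genes, with MIR394A_OE replicate 1 the lowest. GL2 is also active in leaf hairs and the hypocotyl, so its level is not the root's alone. In TAIR10.1 it overlaps AT1G09927, a long non-coding RNA gene, by 155 bases, and the reads of that stretch cannot be assigned, so the level of GL2 is uncertain.

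CPC (AT2G46410), the mobile MYB that promotes the hair fate, was at 7.30, 5.08 and 3.38 FPKM across the Col-0 libraries, 8.46 and 4.20 across those of MIR394A_OE and 5.89, 6.58 and 4.87 across those of bin2-1. Its spread within Col-0 and MIR394A_OE was wider than any difference between group means, and replicate 1 was the highest in both. RHD6 (AT1G66470), the bHLH factor that starts the hair, was likewise highest in replicate 1 of these groups. It was at 3.13, 1.17 and 1.42 FPKM across the Col-0 libraries, 2.71 and 1.3 across those of MIR394A_OE and 2.43, 2.39 and 1.71 across those of bin2-1. Its mRNA matches that of RSL1, its nearest copy, at 84.5% over 444 bases.

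RSL4 (AT1G27740), the bHLH factor that sets how long a hair grows, was at 1.28, 2.10 and 1.94 FPKM in Col-0. It was at 2.44 and 2.11 in MIR394A_OE and at 2.88, 5.49 and 4.75 in bin2-1. All 3 bin2-1 libraries lay above all 5 others, and the 2 MIR394A_OE libraries lay just above Col-0.

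Of the wall genes, EXPA7 and EXPA18 encode alpha-expansins, which loosen the wall of the growing hair. EXPA7 (AT1G12560) was at 3.75, 9.27 and 7.78 FPKM across the Col-0 libraries, 7.49 and 6.83 across those of MIR394A_OE and 8.81, 9.88 and 7.17 across those of bin2-1. EXPA18 (AT1G62980) was at 10.98, 10.49 and 13.41 FPKM across the Col-0 libraries, 12.89 and 7.23 across those of MIR394A_OE and 16.51, 13.92 and 13.29 across those of bin2-1. Single libraries set the low ends, Col-0 replicate 1 for EXPA7 and MIR394A_OE replicate 2 for EXPA18. The mRNAs of the expansin pair match at 75.8% over 682 bases.

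COBL9 (AT5G49270), an anchored wall protein of the COBRA family needed for hair tip growth and listed by RefSeq as SHV2, was at 7.36, 6.01 and 5.92 FPKM in Col-0. It was at 4.39 and 5.48 in MIR394A_OE and at 5.08, 6.15 and 6.03 in bin2-1. MIR394A_OE lay below Col-0 without overlap. PRP3 (AT3G62680), a proline-rich structural protein of the hair wall, was at 38.92, 70.50 and 83.55 FPKM across the Col-0 libraries, 27.49 and 36.80 across those of MIR394A_OE and 43.17, 48.79 and 61.74 across those of bin2-1. Both MIR394A_OE libraries lay below all 6 others. LRX1 (AT1G12040), a leucine-rich repeat extensin of the hair wall, was at 3.97, 9.20 and 8.38 FPKM across the Col-0 libraries, 2.10 and 5.55 across those of MIR394A_OE and 5.32, 6.31 and 7.47 across those of bin2-1. Col-0 replicate 1 lay between the MIR394A_OE libraries, so these groups overlapped.

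In bin2-1 against Col-0, which asks what a mutant form of BIN2 goes with in the seedling, none of the 10 genes passed the test. RSL4 was the closest. Its mean was 4.37 ± 1.35 FPKM (SD, n = 3) in bin2-1 and 1.77 ± 0.435 in Col-0, so the log2 fold change was 0.93 (SE 0.23, 95% interval 0.42 to 1.45), at an adjusted p of 0.109 by limma over all 18798 genes. RSL4 was also the only gene of the 10 without overlap between these groups. WER was next, with a mean of 4.46 ± 1.58 FPKM against 2.85 ± 1.31 and a log2 fold change of 0.52 (SE 0.28, 95% interval -0.10 to 1.14, adjusted p = 0.352). EXPA7 and EXPA18 were at 0.34 (SE 0.28) and 0.30 (SE 0.22), RHD6 and CPC at 0.18 (SE 0.28) and 0.16 (SE 0.29), and GL2 at 0.02 (SE 0.19), all as log2 fold changes. The wall genes without a positive value were PRP3 at -0.27 (SE 0.28), COBL9 at -0.14 (SE 0.17) and LRX1 at -0.09 (SE 0.34).

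Over all genes, limma called 0.112% in this comparison, and 17.8% had an unadjusted p under 0.05, against 1 of the 10 genes, RSL4. Groups did not overlap on the higher side for 20.2% of genes and on the lower side for 8.47%, against 1 and 0 of the 10. These shares are near or below the background. The median log2 fold change of the 10 genes was 0.17, with 7 positive, beside 0.10 and 63.4% positive over all genes. Relative to that shift of 0.10, rescaling by the median of ratios put RSL4 at 0.85 (adjusted p = 0.120). Without Col-0 replicate 1 and MIR394A_OE replicate 1, RSL4 was at 0.80 (adjusted p = 0.147) and 0 of the 10 were called. There, 4 of the 10 had an unadjusted p under 0.05, namely RSL4, WER at 0.78, RHD6 at 0.46 and PRP3 at -0.59, beside 22.9% of all genes in the same fit. EXPA7, lowest in Col-0 replicate 1, was at 0.0088 without that library. With 1 library left out at a time, log2 fold changes in bin2-1 spanned 0.78 to 1.152 for RSL4, 0.30 to 0.78 for WER, 0.22 to 0.40 for EXPA18, -0.59 to -0.048 for PRP3 and -0.18 to -0.048 for COBL9.

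**Figure D3:**
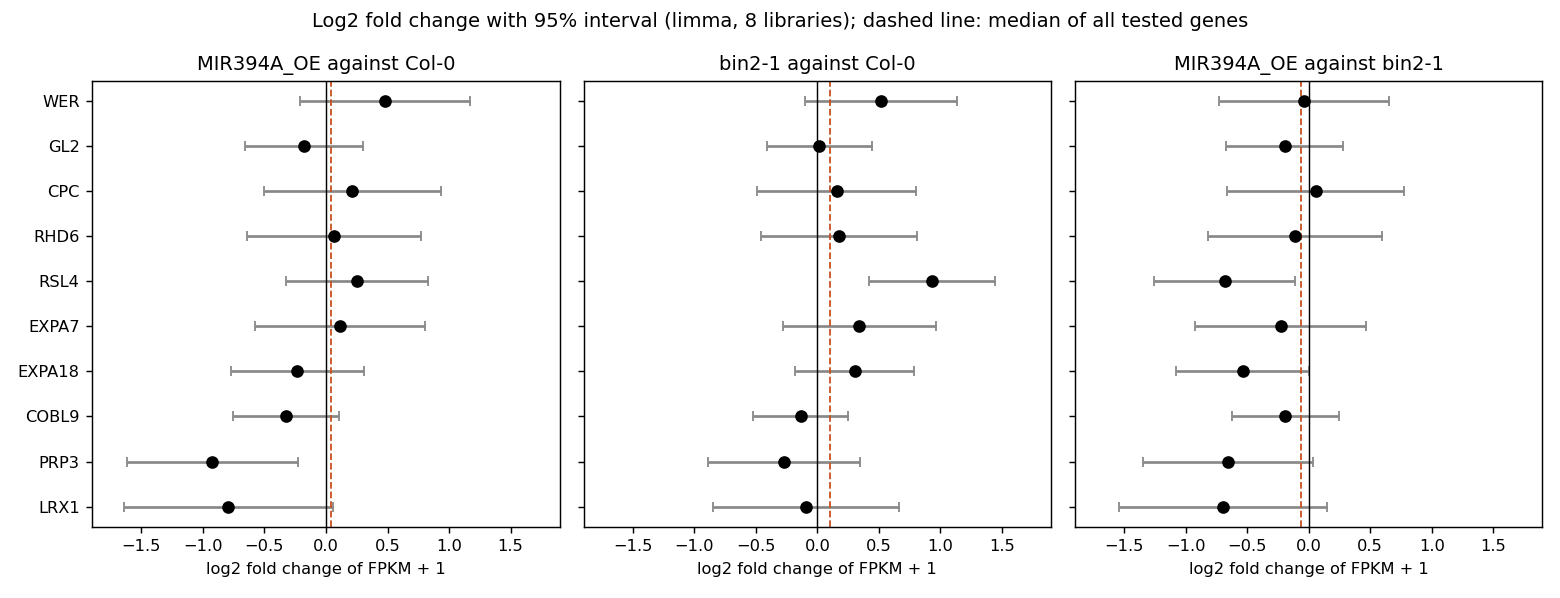
Log2 fold change of FPKM + 1 (x axis) for each gene in the 3 comparisons, with the 95% interval from limma and a dashed line at the median of all tested genes. The interval of RSL4 lies above 0 in bin2-1 against Col-0 (0.42 to 1.45) and that of PRP3 below 0 in MIR394A_OE against Col-0 (-1.62 to -0.23), and neither gene passed after adjustment.

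In MIR394A_OE against Col-0, which asks what goes with overexpression of MIR394A, none of the 10 genes passed either. The wall proteins PRP3 and LRX1 had the largest differences. PRP3 had a mean of 32.1 ± 6.58 FPKM (SD, n = 2) against 64.3 ± 22.9 (SD, n = 3), so the log2 fold change was -0.92 (SE 0.31, 95% interval -1.62 to -0.23, limma adjusted p = 0.873). LRX1 had a mean of 3.83 ± 2.44 against 7.18 ± 2.81 FPKM, or -0.79 on the log2 scale (SE 0.38, 95% interval -1.64 to 0.05, adjusted p = 0.873). COBL9 was at -0.32 (SE 0.19) and EXPA18 at -0.23 (SE 0.24), while EXPA7 was at 0.11 (SE 0.31). Among the regulators WER was at 0.48 (SE 0.31), RSL4 at 0.25 (SE 0.26), CPC at 0.21 (SE 0.32), RHD6 at 0.07 (SE 0.32) and GL2 at -0.18 (SE 0.21).

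Over all genes limma called 0.0106%, and 4.78% had an unadjusted p under 0.05, against 1 of the 10, PRP3. On the higher side 10.9% of genes did not overlap, against 1 of the 10, RSL4. On the lower side the share was 6.17%, against 2 of the 10, PRP3 and COBL9. The median over the 10 genes was -0.06 on the log2 scale, with 5 positive and 5 negative, beside 0.04 and 55.6% positive over all genes. LRX1 depended on MIR394A_OE replicate 1, the library at the low end of component 1: without it the log2 fold change was -0.25, and without Col-0 replicate 1 it was -1.12. PRP3 was at -0.72 and -1.24 in the same fits. Without both libraries PRP3 was at -1.04, LRX1 at -0.58 and EXPA18 at -0.64, and none was called. Fits without MIR394A_OE replicate 1 rest on 1 MIR394A_OE library.

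Between the lines, MIR394A_OE against bin2-1, 0 of the 10 genes passed in limma. Of the 10 values 9 were negative and 1 was positive, beside 43.8% positive over all genes. This comparison shares its libraries with the others and is no separate evidence. LRX1 was at -0.70 (SE 0.38), RSL4 at -0.68 (SE 0.26), PRP3 at -0.66 (SE 0.31) and EXPA18 at -0.54 (SE 0.24), with adjusted p between 0.208 for RSL4 and 0.337 for LRX1. RSL4, EXPA18 and PRP3 were lower in MIR394A_OE without overlap, 3 of the 10 against 20.9% of all genes. On the higher side the counts were 0 of 10 against 15%. An unadjusted p under 0.05 was reached by 1 of the 10, RSL4, against 19% of all genes, and limma called 0.0532% of them. LRX1 was at -0.16 without MIR394A_OE replicate 1 and -1.24 without replicate 2, and EXPA18 at -0.91 and -0.16 in the same fits. All 5 wall genes were negative, with a median of -0.54 beside -0.06 over all genes.

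Across the 8 libraries the 10 genes did not follow a single pattern. PRP3 and LRX1 varied together (Pearson r = 0.916 over 8 libraries on the log2 scale), as did RHD6 and CPC (0.843). The pairs ran against each other, with r = -0.779 between LRX1 and CPC and -0.741 between LRX1 and RHD6. For EXPA7 and EXPA18, which both have an RHE match, r was 0.337, and for EXPA7 with RSL4 it was 0.603. These values are descriptions over libraries that share their group and their place on component 1.

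**Figure D4:**
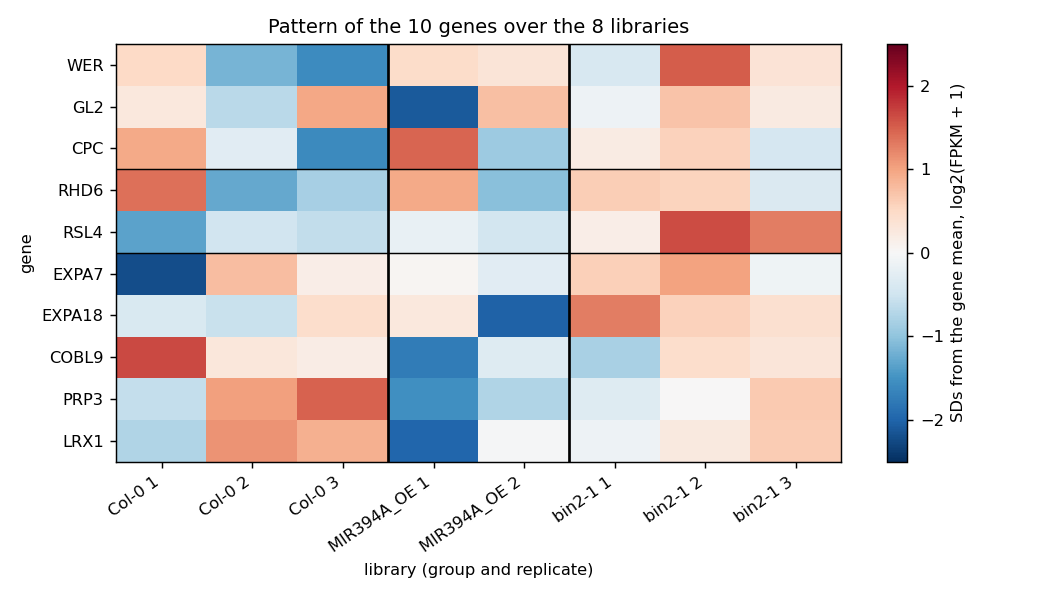
Standardised log2(FPKM + 1) of each gene (rows, by role) in each library (columns, by group), in SDs from the gene's mean, red above and blue below. PRP3 and LRX1 share their low values in MIR394A_OE replicate 1, where CPC and RHD6 are high.

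The mean pattern of the 5 wall genes was lowest in MIR394A_OE replicate 1 and 2 (-0.99 and -0.68 SD) and highest in Col-0 replicate 3 (0.63). Among 13816 other genes averaging 5 FPKM or more, the 5 most like it were WAK2, a wall-associated kinase (Pearson r = 0.962 over 8 libraries), AT1G80510 (0.957), AT4G33310 (0.940), AT1G28280 (0.938) and AMT1;1, an ammonium transporter of root cells (0.934). The FPKM of WAK2 was 10.60 and 13.05 in the MIR394A_OE libraries, below the 15.34 to 21.81 of Col-0. WAK2 was picked for following a pattern that is lowest in these libraries, so this difference is a description only. None of the 41 candidates from the further hair, root and shoot lists was among the 50 most alike, which ended at r = 0.880. For these candidates r ran from -0.822 for LHCB1.1, of the green shoot list, up to 0.877. The highest were PRP1 (0.877) and AT1G05240 (0.870), both of the further hair wall list. Extensins that were on no list were among the 50, with EXT10 at 0.927, EXT4 at 0.908 and EXT6 at 0.887.

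The genes around the 10 in the pathway gave few differences as well. Of 12 other fate regulators, 10 were tested, and limma called 0 in bin2-1 against Col-0 and 0 in MIR394A_OE against Col-0. An unadjusted p under 0.05 was reached by 1 and 2, beside 17.8% and 4.78% of all genes. JKD, a zinc finger protein of the cortex that acts on epidermal fate, was at 12.43, 13.82 and 14.31 FPKM across bin2-1 libraries, against 7.78, 9.24 and 10.65 for Col-0, or 0.51 higher as a log2 value (SE 0.19, adjusted p = 0.212). In MIR394A_OE it was at 5.04 and 7.39 FPKM, below Col-0 without overlap (-0.51, SE 0.21, limma adjusted p = 0.873). MYC1, of the same list, was at 4.62 and 5.06 FPKM in MIR394A_OE, against 4.13, 3.15 and 2.15 for Col-0. It lay above Col-0 without overlap (0.52, SE 0.23, limma adjusted p = 0.873). MYB23, a MYB close to WER in function, was at 3.55, 4.92 and 4.61 FPKM across bin2-1 libraries, against 9.76, 5.43 and 5.29 for Col-0 (-0.51, SE 0.25). Its log2 fold change spanned -0.64 to -0.26 with 1 library left out at a time, and Col-0 replicate 1 was its highest library. In bin2-1, JKD lay above Col-0 and MYB23 below it, both without overlap. These were 1 of the 10 tested on each side, beside 20.2% and 8.47% of all genes. In MIR394A_OE it was also 1 of the 10 on each side, beside 10.9% higher and 6.17% lower.

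Of 10 other hair transcription factors, 7 were tested and limma called 0 in either line. At an unadjusted p under 0.05 there was 1 in each, beside 17.8% of all genes in bin2-1 and 4.78% in MIR394A_OE. The gene in MIR394A_OE was LRL2, at 2.73 and 2.96 FPKM against 6.77, 4.24 and 5.46 for Col-0 (-0.74, SE 0.23, limma adjusted p = 0.873). Below Col-0 without overlap lay 2 of the 7 in MIR394A_OE, beside 6.17% of all genes. RSL2, a bHLH close to RSL4 and likewise a promoter of hair growth, was at 1.64, 1.88 and 2.56 FPKM across bin2-1 libraries, against 0.86, 0.83 and 1.48 for Col-0, without overlap (0.56, SE 0.20, adjusted p = 0.207). In MIR394A_OE it was at 0.79 and 0.61 FPKM. ZFP5, a zinc finger factor of hair initiation, was at 2.99 to 3.33 FPKM across bin2-1 libraries, against 1.28 to 2.91 for Col-0 (0.46, SE 0.21). With 1 library left out at a time, its log2 fold change spanned 0.25 to 0.64. RSL2 and ZFP5 were picked for their small p in bin2-1 against Col-0, so their side of Col-0 is no separate evidence on RSL4. Of the 7 tested, 6 were positive in bin2-1, beside 63.4% of all genes. On the higher side 2 of the 7 did not overlap, beside 20.2% of all genes.

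Of 18 tip growth genes, 15 were tested and limma called 0 in either line. At an unadjusted p under 0.05 were 3 in bin2-1 and 1 in MIR394A_OE, beside 17.8% and 4.78% of all genes. The gene in MIR394A_OE was ROP2, at 70.4 and 71.55 FPKM against 46.89, 57.77 and 54.23 for Col-0 (0.42, SE 0.17, limma adjusted p = 0.873). In MIR394A_OE 3 of the 15 lay above Col-0 without overlap, beside 10.9%, and 2 below, beside 6.17%. COW1, a lipid transfer protein needed for tip growth, was at 2.85, 2.70 and 3.28 FPKM across bin2-1 libraries, against 1.59, 1.75 and 1.23 for Col-0 (0.65, SE 0.19, adjusted p = 0.150). IRE, a kinase needed for hair elongation, was at 1.02 to 1.74 FPKM across bin2-1 libraries, against 0.55 to 0.86 for Col-0 (0.49, SE 0.20). The list's median was 0.13 in bin2-1 and -0.06 in MIR394A_OE.

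All 12 further hair wall genes were tested and limma called 0 in either line. At an unadjusted p under 0.05 there were 0 in bin2-1 and 1 in MIR394A_OE, beside 17.8% and 4.78% of all genes. In MIR394A_OE 10 of the 12 were negative and 2 positive, beside 55.6% positive over all genes. Their median was -0.31, beside -0.32 for the 5 wall genes above and 0.04 over all genes. Below Col-0 without overlap lay 0 of the 12, beside 6.17% of all genes. Their summed FPKM was 231 to 242 in MIR394A_OE, inside the 213.4 to 349.6 of Col-0. The 1 gene at an unadjusted p under 0.05 was PRP1, a relative of PRP3 with an RHE match, named after its values were seen. PRP1 was at 5.97 and 11.29 FPKM in MIR394A_OE and at 10.60, 18.94 and 19.69 in Col-0 (-0.86, SE 0.31, adjusted p = 0.873), and at -0.46 without MIR394A_OE replicate 1. In bin2-1 the median was -0.06. LRX2, the extensin nearest to LRX1, was at 2.05 to 4.16 FPKM across bin2-1 libraries, against 3.20 to 5.98 for Col-0 (-0.54, SE 0.34). Its log2 fold change spanned -0.78 to -0.34 with 1 library left out at a time. RHS19, a peroxidase named as root hair specific, was at 24.78 to 33.08 against 18.17 to 26.91 FPKM (0.32, SE 0.24). In both the groups overlapped.

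**Figure D5:**
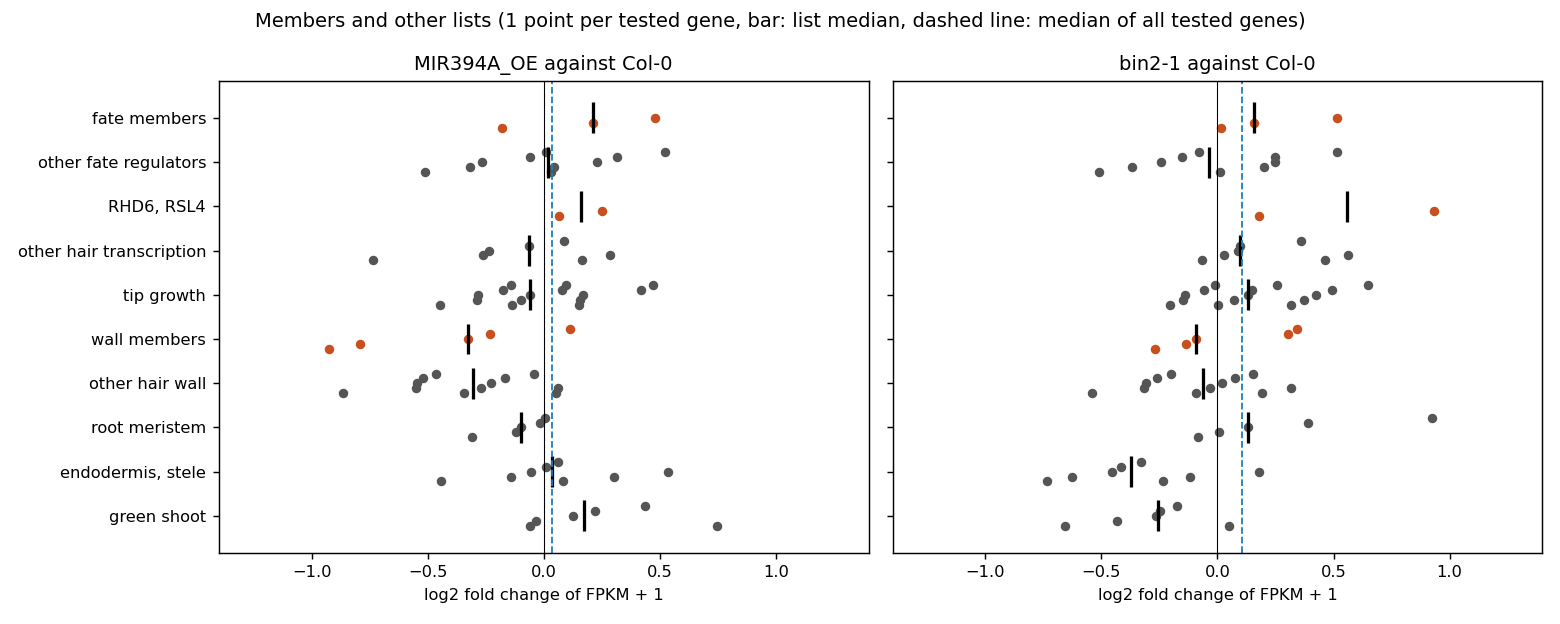
Log2 fold changes of FPKM + 1 (x axis) of the tested genes of each list (rows, leaf hair markers left out) in MIR394A_OE and in bin2-1 against Col-0, with the 10 genes in orange, other lists in grey, a bar at each list's median and a dashed line at the median of all tested genes. In MIR394A_OE the bars of the wall lists lie at -0.32 and -0.31, and in bin2-1 RSL4 is the rightmost of the 10 at 0.93.

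Limma called 0 of the markers of other root and shoot cells in each comparison, and the part of these cells in the values above was not tested. Endodermis and stele markers summed to 70.1 to 102.5 FPKM for bin2-1, against 104.5 to 112.4 for Col-0, without overlap, and to 95.9 to 106.2 in MIR394A_OE. Of the 8 tested, 7 were negative in bin2-1, where 63.4% of all genes were positive. Limma called 0, and 3 had an unadjusted p under 0.05, beside 17.8% of all genes. On the lower side 3 did not overlap, beside 8.47%. CASP5 was at -0.73 (SE 0.31) and CASP2 at -0.63 (SE 0.27), both Casparian strip proteins. Root meristem markers summed to 29.9 to 35.8 FPKM for bin2-1, 28.5 to 32.2 for Col-0 and 22.4 to 30.9 in MIR394A_OE. Among them WOX5, the factor of the root stem cell niche, was at 4.27, 3.20 and 2.05 FPKM across bin2-1 libraries. In Col-0 it was at 1.11 to 1.22 FPKM, and the log2 fold change was 0.92 (SE 0.21, limma adjusted p = 0.102). Of 17 alternatives 16 left WOX5 uncalled. The adjusted p by limma ran from 0.0442 without bin2-1 replicate 3 to 0.415 without bin2-1 replicate 2. AT5G48940 was at 3.46 to 4.21 against 2.48 to 3.17 FPKM (0.39, SE 0.19).

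Green shoot genes summed to 26790 to 39910 FPKM for bin2-1, 34400 to 40120 for Col-0 and 36740 to 43850 in MIR394A_OE. LHCB2.2, a light-harvesting protein, was at -0.66 (SE 0.22) and RBCS3B, a Rubisco subunit, at -0.27 (SE 0.15) in bin2-1, neither called. Leaf hair markers, which bear on WER, GL2 and CPC because leaf hairs use the same kind of MYB complex, summed to 8.75 to 9.92 FPKM for bin2-1, 7.27 to 11.5 for Col-0 and 9.23 to 12.2 in MIR394A_OE. GL1, the leaf hair MYB, was at 0.68 to 1.32 FPKM across bin2-1 libraries, against 0.41 to 1.6 for Col-0, and NOK at 7.13 to 7.94 and 6.61 to 9.23. These groups overlapped. In MIR394A_OE, GL1 was at 1.85 and 1.63 FPKM, above every Col-0 library (0.60, SE 0.28, adjusted p = 0.873 by limma). The mRNA of WER matches that of GL1, its nearest copy, at 80% over 380 bases.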

How the data were processed

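RNA was sequenced from 8 libraries of whole seedlings, with TruSeq libraries per the labels' protocols. The authors deposited 1 table of FPKM values with 2 decimals, per the file headers. Per the submitters' processing notes, Bowtie2 and HISAT were used, in versions and roles not listed. The sources used here do not name the program behind FPKM, the build or the strand setting. Of 22951 genes, 22798 were matched by NCBI gene number to RefSeq's TAIR10.1 table. Of the transcript accessions, 96.5% were in that annotation and 26.0% with the same version.

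FPKM are not counts, so log2(FPKM + 1) was tested with limma 3.58.1 in R 4.3.3 for all genes averaging 1 FPKM or more, which understates changes of low genes. The fit held all 8 libraries, group means and no replicate block (eBayes with trend and robust, two-sided), with Benjamini-Hochberg adjustment over all genes and a threshold of 0.05. The test was tried on simulated data first. Depth was estimated from steps of low values over 1357 genes, where 87.0% to 92.6% of values of up to 5 reads came out whole within 0.1 read. Read numbers per gene use RefSeq lengths and are approximate. Near copies were sought with BLAST 2.17.0. Members and lists were chosen with earlier results of these data known. The text names all 10 members, and from each other list the called genes or else the 2 with the smallest p in bin2-1 against Col-0. PRP1, AT5G35940, AT1G05240, LHCB1.1, EXT4, EXT6, EXT10, MYC1, LRL2 and ROP2 were named after their values were seen. Alternatives covered pseudocount, filter, scaling, replicate block, groups in the fit, eBayes and leaving out each library. Leaving out both libraries lowest on component 1 was added after seeing the data. 1 result is not reported here.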

Additional observations from a re-analysis of the deposited data

How the results depend on the processing

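Limma called 0 of the 10 genes in each comparison under each alternative that tested them all. At a minimum of 5 FPKM it tested 7 of them, without RHD6, RSL4 and WER, and called 0. Over all alternatives, 501 values of their fold changes kept direction and 30 turned it. Labels number the replicates. Deviations from the group mean had correlations between -0.20 and 0.36 for same-numbered libraries and between -0.36 and 0.44 for the others. Whether the numbers pair the libraries cannot be told from these values. The deviations of the 2 MIR394A_OE libraries mirror each other by construction. With the replicate block, 32 genes instead of 21 were called in bin2-1 against Col-0, RHD6 in MIR394A_OE against Col-0 was at -0.039 and CPC in MIR394A_OE against bin2-1 at -0.11. The causes of the changes below were not tested.

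Genes called in MIR394A_OE against bin2-1 were 10, and 6 at a pseudocount of 0.1 or 0.5, 3 with no filter and 2 without both libraries lowest on component 1. In bin2-1 against Col-0 they were 3 with no filter, 112 by median of ratios, 9 without trend and robust and 1 without both libraries. With only the 2 groups compared limma called 0 in each comparison (572, 4224 and 3133 at an unadjusted p under 0.05, in the order MIR394A_OE and bin2-1 against Col-0, then MIR394A_OE against bin2-1). Leaving out single libraries gave 0 to 2 calls in MIR394A_OE against Col-0, 0 (without Col-0 replicate 1, 3092 at an unadjusted p under 0.05) to 180 in bin2-1 against Col-0 and 1 to 2307 in MIR394A_OE against bin2-1. At a minimum of 5 FPKM the median of the 7 genes tested was -0.23 and 0.017 in MIR394A_OE and bin2-1 against Col-0, a change that comes with dropping 3 genes. The median of the 10 was -0.33 in MIR394A_OE against bin2-1 without both libraries. Over single libraries left out it spanned -0.20 to 0.16, 0.088 to 0.27 and -0.33 to -0.15 in that order.

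By median of ratios and quantile scaling, GL2 was at -0.089 and -0.066 and NOK at -0.10 and -0.10 in bin2-1 against Col-0, and WER at 0.0073 and 0.011 in MIR394A_OE against bin2-1. Without both libraries, EXPA7 was at -0.28 and GL2 at 0.13 in MIR394A_OE against Col-0, and GL2 at 0.10 and CPC at -0.37 in MIR394A_OE against bin2-1. With single libraries left out, ranges that crossed 0 in MIR394A_OE against Col-0 were -0.28 to 0.41 for RHD6, -0.22 to 0.34 for EXPA7, -0.61 to 0.14 for EXPA18, -0.48 to 0.12 for GL2 and -0.22 to 0.65 for CPC. In bin2-1 against Col-0 they were -0.0013 to 0.46 for RHD6, -0.42 to 0.10 for LRX1, -0.072 to 0.098 for GL2, -0.075 to 0.39 for CPC, -0.022 to 0.42 for GL1 and -0.082 to 0.13 for NOK. In MIR394A_OE against bin2-1 they were -0.46 to 0.23 for RHD6, -0.49 to 0.10 for GL2, -0.22 to 0.18 for WER and -0.37 to 0.49 for CPC. Low read numbers limit RHD6, RSL4, WER and CPC most.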

Other observations

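Outside the 10 genes, 134 tested genes had an RHE match in the same upstream window. Their median log2 fold change was 0.06 in bin2-1 against Col-0, beside 0.10 over all genes. There 83 of the 134 were positive, beside 63.4% of all genes. In MIR394A_OE against Col-0 the median was 0.01, beside 0.04. In bin2-1, 17 had an unadjusted p under 0.05 on the higher side and 11 on the lower, beside 17.8% of all genes in either direction. In MIR394A_OE the counts were 2 and 4, beside 4.78%. No test of these genes as a group was made.

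Limma called 1 of the 134 in bin2-1, beside 0.112% of all genes. AT5G35940 was at 23.86, 21.86 and 20.47 FPKM in bin2-1, at 10.07, 9.61 and 8.40 for Col-0, with MIR394A_OE at 9.71 and 9.88. The log2 fold change was 1.16 (SE 0.15, adjusted p = 0.0387), higher in 3 of 3 libraries. The fold change stayed between 1.05 and 1.23 over 18 alternatives. The call ended (adjusted p = 0.0927 and 0.213) on leaving out Col-0 replicate 1 or 2, MIR394A_OE replicate 1 or 2 (0.0666 and 0.0678) or bin2-1 replicate 1 or 2 (0.142 and 0.272). It also ended without both libraries lowest on component 1 (0.111), with no filter (0.0675) and with only the 2 groups compared (0.0653).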
